A study of Homo sapiens with 12 samples.

Results

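Interferon-stimulated genes are described here as a set of 45 named genes, taken by symbol from a table of 26210 genes and followed through all 12 RNA-Seq libraries of the study. The rule uses gene symbols and no expression value. All 45 were found and all 45 reached the expression minimum used for testing (1 FPKM, fragments per kilobase of transcript scaled to the mapped fragments of the library, in at least 2 libraries), which left 14679 genes. The libraries came from 6 groups of 2. L428, L1236 and KM-H2 are classical Hodgkin lymphoma (cHL) cell lines, which stand for the Hodgkin/Reed-Sternberg cells of that tumour. Namalwa, a Burkitt's lymphoma line, and Reh, labelled a Pro-B lymphoblastic leukemia line, were the non-Hodgkin B cell controls, and a last group was Reh treated with phorbol myristate acetate (PMA, an activator of protein kinase C) at 2 ng/ml. The duration of PMA treatment behind these libraries is not given in the sources used here. The cHL lines were grown in IMDM and the control lines in RPMI, so that medium and tumour type cannot be told apart, and each tumour type is represented by so few lines that a line's own history cannot be told apart from it.

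Cells that sense viral nucleic acid, or that receive interferon from a neighbour, switch on a large set of genes together. Type I and type III interferons act through receptor-bound JAK kinases on STAT transcription factors, and a complex that holds IRF9 binds the interferon-stimulated response element (ISRE) in front of their targets, while interferon gamma acts mainly through the gamma-activated site (GAS). The products include sensors of foreign RNA, enzymes that lead to its degradation, proteins that bind viral RNA or block virus entry and release, the ubiquitin-like modifier ISG15 with the enzymes that attach and remove it, and guanylate-binding GTPases. HRS cells have lost much of the B cell programme and are known for active JAK-STAT and NF-kB signalling.

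Promoters were examined because many of these genes moved together between the groups. RefSeq promoter windows of assembly GRCh38.p14 (250 bases before to 50 after each start) were matched for 34 of the 45 genes, with 47 windows among them. The windows were searched on both strands for the ISRE core GAAANNGAAA and, independently of it, for the GAS core TTCNNNGAA, and overlapping matches were kept. The ISRE core was present in 30 of the 47 windows (63.8%), in 25 of the 34 genes, and in 3.57% of all 35116 windows of the same length. The GAS core was present in 12 of the 47 windows (25.5%) and in 7.66% of all windows. Not matched were IFIT2, IFITM2, MX2, OAS2, OASL, DHX58, USP18, GBP2, GBP5, TRIM22 and LY6E. The 150 bases just upstream of the start are shown for the modifier gene ISG15, for IFIT1, whose product binds viral RNA, for its neighbour IFIT3, for IFI44L and IFITM1, which had the largest differences among the genes called higher in L1236 than in the controls, and for XAF1, the gene with the strongest fall after PMA. Each is read 5′ to 3′ on the plus strand of GRCh38.p14, and capitals mark matches to the ISRE core on either strand.
ISG15, chr1:1013347-1013496: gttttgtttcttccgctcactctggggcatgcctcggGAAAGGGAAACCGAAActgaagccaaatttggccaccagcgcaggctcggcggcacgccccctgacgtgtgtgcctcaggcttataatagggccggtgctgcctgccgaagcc
IFIT1, chr10:89392473-89392622: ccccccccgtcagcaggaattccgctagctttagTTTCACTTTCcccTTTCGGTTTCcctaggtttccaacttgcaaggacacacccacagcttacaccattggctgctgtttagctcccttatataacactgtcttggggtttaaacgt
IFIT3, chr10:89332379-89332528: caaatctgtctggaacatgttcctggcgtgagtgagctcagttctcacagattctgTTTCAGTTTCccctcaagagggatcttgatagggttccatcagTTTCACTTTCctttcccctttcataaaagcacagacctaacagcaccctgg
IFI44L, chr1:78620298-78620447: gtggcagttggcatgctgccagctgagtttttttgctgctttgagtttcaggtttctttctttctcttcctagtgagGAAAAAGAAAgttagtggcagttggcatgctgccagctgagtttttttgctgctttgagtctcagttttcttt
IFITM1, chr11:313890-314039: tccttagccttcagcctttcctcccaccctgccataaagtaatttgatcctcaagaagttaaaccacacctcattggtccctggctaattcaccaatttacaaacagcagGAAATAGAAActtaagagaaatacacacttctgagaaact
XAF1, chr17:6755896-6756045: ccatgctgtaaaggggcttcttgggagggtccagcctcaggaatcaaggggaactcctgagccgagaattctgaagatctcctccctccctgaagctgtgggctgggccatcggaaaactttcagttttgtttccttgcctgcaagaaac
ISG15 held 2 overlapping matches on the plus strand, IFIT1 and IFIT3 each held 2 on the opposite strand, and these letters did not occur in either XAF1 window. A match is a description of letters and was not tested as a binding site.

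Libraries are named by the numbers 0 and 1 of their column headers, and pairs of values below are given in that order. The labels do not say whether duplicates were separate cultures, so that p-values measure the spread between libraries, which may be technical. Across genes, duplicates correlated less well in the cHL lines (Pearson r 0.906 to 0.922 on the log2 scale) than in the other groups (0.969 to 0.985), and genes are not independent replicates. Interferon-stimulated genes tended to be higher in library 1 than in library 0 in all groups but PMA-treated Reh. The median log2 difference of library 1 over library 0 was 0.72 in L1236, where 40 of 45 genes were higher in library 1, 0.56 in L428 and 0.38 in KM-H2, against 0.00 over all tested genes in each line. In untreated Reh it was 0.19, with 34 of 45 genes higher in library 1 as in L428, in Namalwa 0.08 with 29 of 45, and after PMA -0.04 with 19 of 45. The FPKM total of all genes followed the same order, higher in library 1 in all groups but PMA-treated Reh. In L1236 it was 665231 in library 0 and 885653 in library 1, and after PMA 786715 and 723686. Whether these totals have a part in the differences was not tested. Results that rest on 1 of these libraries are given with and without it. Between 22 and 116 genes per group were listed at 0 in one library and at 5 FPKM or more in its duplicate, so that a value of 0 may be a failed estimate and is described here as listed at 0. The summed FPKM of 6 B-lineage markers was 857 to 1383 in the control and PMA libraries and 0.773 to 35.5 in the cHL libraries. PAX5, at 33.8 and 19.8 FPKM, made up most of this sum in L1236. For 6 genes typical of Hodgkin lines the sum was 133 to 1528 in the cHL libraries and 2.14 to 60.7 in the others. TNFRSF8, CCL17 and FSCN1 were higher in every cHL library than in every other library. The rest of these genes were mixed. CSF1R was at 11.8 and 11.2 FPKM in PMA-treated Reh and at most 2.05 in the cHL libraries. TRAF1 was at 18.5 and 14.8 FPKM in PMA-treated Reh and 10.5 and 14.3 in L1236, and CCL22 was listed at 0 in KM-H2. Markers of plasmacytoid dendritic cells, which make interferon, summed to at most 0.289 FPKM in any library. The 3 T cell markers summed to 14.5 to 23.5 FPKM in KM-H2 and to at most 0.159 elsewhere, and 1 gene carried this sum: CD3D was at 13.5 and 22.5 FPKM, while CD3E was at 0.197 and 0 and CD2 at 0.779 and 1.01. The 3 myeloid markers summed to 4.81 to 6.46 FPKM in KM-H2 and to at most 0.930 elsewhere, with CD14 at 5.79 and 4.56 FPKM, LYZ at 0.591 and 0.255 and CSF3R at 0.0816 and 0.

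The lines differed widely in their level of interferon-stimulated genes. The median over the 45 genes was 8.65 and 10.5 FPKM in Reh, 3.21 and 2.91 after PMA, 1.87 and 2.53 in Namalwa, 11.1 and 14.4 in L428, 13.9 and 26.0 in L1236, and 5.36 and 6.35 in KM-H2. The medians of all tested genes lay between 6.53 and 7.71 FPKM in the 12 libraries. L1236 was the highest of the 5 untreated lines for 22 of the 45 genes, Reh for 11, L428 for 8, KM-H2 for 3 and Namalwa for 1. Untreated Reh, a control line, thus had a higher median than KM-H2 in both libraries, and Namalwa lay below every other untreated line.

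**Figure D1:**
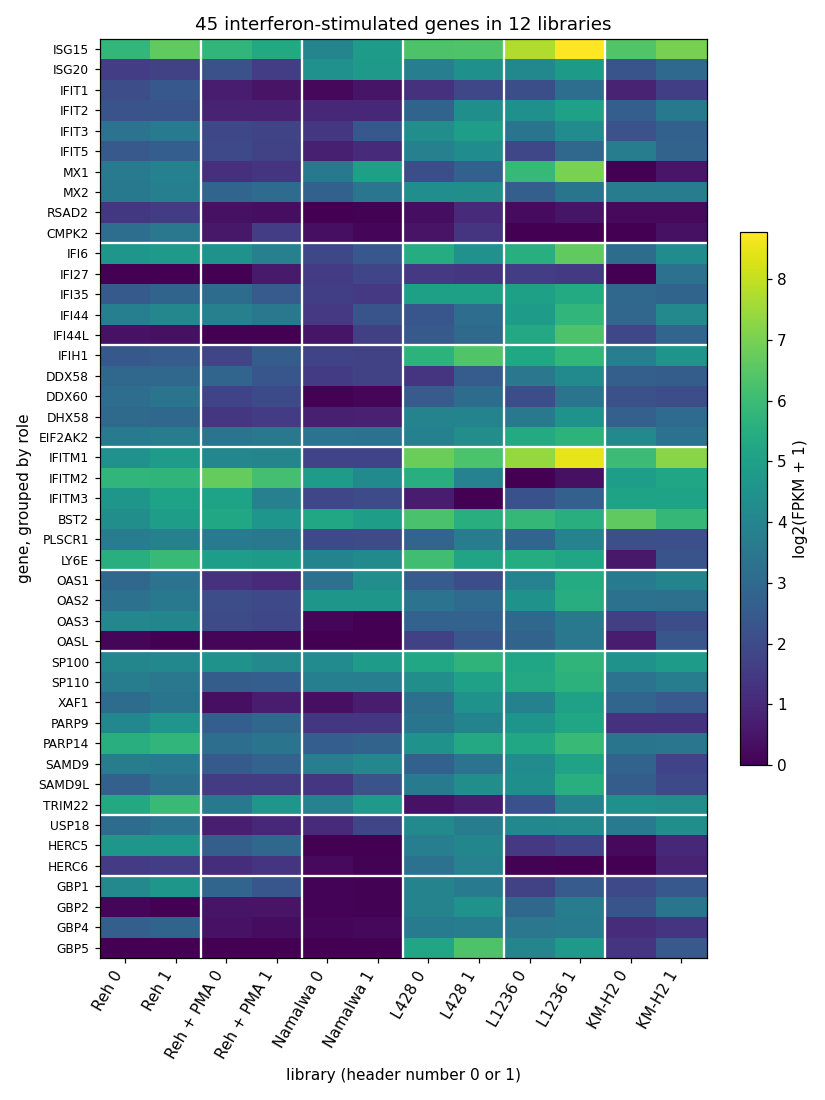
Level of each of the 45 interferon-stimulated genes, as log2(FPKM + 1), in each of the 12 libraries; rows are genes grouped by role, with white lines between roles, and columns are libraries, 2 per group. L1236 library 1 is the brightest column, with a median of 26.0 FPKM, and the Namalwa columns, with medians of 1.87 and 2.53 FPKM, are the darkest of the untreated lines.

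PMA treatment of Reh was used to ask how these genes respond to PMA in a control B cell line. Of the 45 genes, 19 fell and 0 rose, where 11.8% of all tested genes fell and 10.5% rose (limma across all tested genes, Benjamini-Hochberg adjusted p below 0.05 and an absolute difference of at least 1 on the log2(FPKM + 1) scale, which understates the change of low genes). The median difference was -0.89 over the 45 genes and -0.03 over all tested genes, and 36 of the 45 had a negative sign. In bulk RNA, fewer cells that express a gene and less RNA per cell cannot be told apart. With the pseudocount at 0.1 in place of 1, GBP2, named after its values were seen, was called higher. Without library 1 of untreated Reh the number that fell was 12. The summed level of 6 precursor B cell markers lay between 1230 and 1320 FPKM in untreated and between 131 and 142 FPKM in treated Reh, and its part in these falls was not tested.

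The falls covered several roles. Of 10 antiviral effectors 6 fell, as did 4 of 8 nuclear and other factors. Falls were also called for 2 of 5 RNA sensors and kinase and 2 of 4 guanylate-binding proteins. Of 4 genes grouped as oligoadenylate synthetases 3 fell, OAS1, OAS2 and OAS3, which make the activator of RNase L. Of 3 genes grouped under the ISG15 pathway (USP18, HERC5 and HERC6) 2 fell. None of the 5 IFI proteins and none of the 6 membrane restriction factors passed the test. XAF1, a pro-apoptotic binding partner of XIAP, was at 7.66 and 9.70 FPKM in untreated Reh and at 0.288 and 0.595 after PMA, a log2 difference of -2.75 (SE 0.47, adjusted p = 0.00268). MX1, a dynamin-like GTPase that traps viral nucleocapsids, was at 11.0 and 13.6 FPKM before and 1.27 and 1.58 FPKM after PMA, a log2 difference of -2.45 (SE 0.50, adjusted p = 0.00649), and this call was lost without library 0 of PMA-treated Reh. For both genes the untreated and treated libraries did not overlap.

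GBP4, a guanylate-binding protein, went from 5.39 and 6.09 to 0.335 and 0.215 FPKM with PMA (log2 difference -2.40, SE 0.18, adjusted p = 3.07e-05). PARP14, an ADP-ribosyltransferase, went from 45.7 and 53.4 to 8.12 and 9.34 FPKM (log2 difference -2.38, SE 0.30, adjusted p = 0.000547). Both remained measurable after treatment, PARP14 at a level near the median gene and GBP4 below 1 FPKM. IFIT1 was at 3.23 and 4.36 FPKM before and 0.581 and 0.363 after PMA (log2 difference -1.70, SE 0.39, adjusted p = 0.0103), and OAS1, which makes the second messenger of RNase L, was at 6.74 and 9.21 FPKM before and 1.37 and 1.14 FPKM after it (log2 difference -1.98, SE 0.49, adjusted p = 0.0147). The other genes that fell were USP18, CMPK2, OAS3, HERC5, GBP1, IFIT3, PARP9, DHX58, SAMD9L, IFIT2, OAS2, DDX60 and RSAD2, with log2 differences between -2.38 and -1.14.

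ISG15, IFITM1, BST2 and IFI27, all well-known interferon targets, gave no call with PMA. ISG15 was at 54.8 and 98.6 FPKM in untreated and 53.6 and 39.7 in treated Reh (log2 difference -0.66, SE 0.44, adjusted p = 0.294), IFITM1, which blocks virus entry at the membrane, was at 20.9 and 27.2 FPKM untreated and 15.9 and 14.9 FPKM treated (log2 difference -0.60, SE 0.43, adjusted p = 0.329), and BST2, the tether of budding virions, was at 19.3 and 29.2 FPKM untreated and 37.8 and 23.3 FPKM treated (log2 difference 0.31, SE 0.38, adjusted p = 0.606). Treated and untreated libraries lay apart for ISG15 and IFITM1 and overlapped for BST2. IFI27 was listed at 0 in both untreated libraries and at 0 and 0.569 FPKM after PMA. Of the 25 genes with an ISRE core in a window 11 fell, and of the 9 genes with windows and no match 4 fell, so that falls were counted in both sets.

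**Figure D2:**
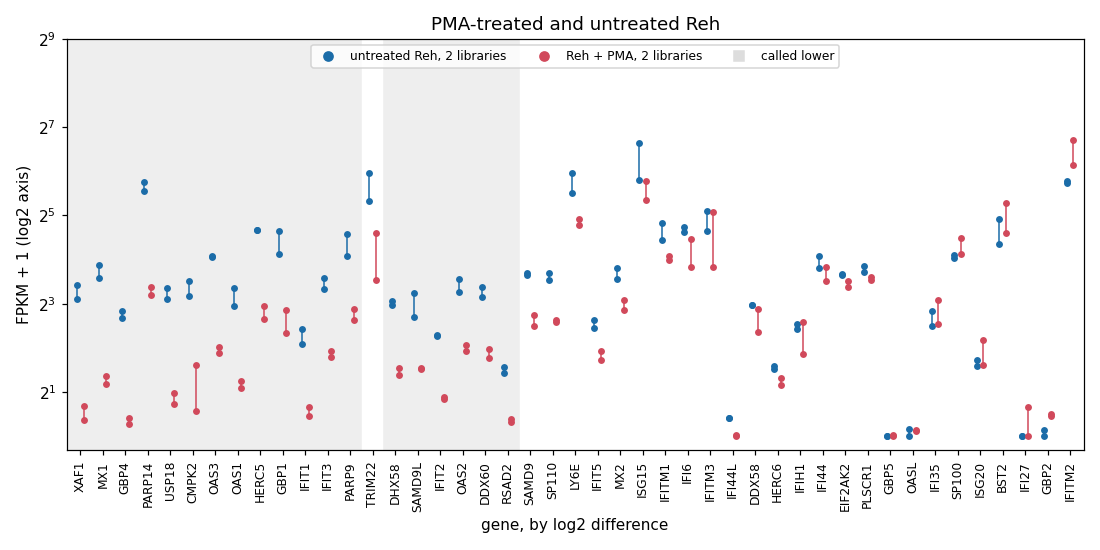
Level of each gene in the 2 untreated (blue) and 2 PMA-treated (red) Reh libraries, as FPKM + 1 on a log2 axis; lines join duplicates, genes are ordered by log2 difference and grey marks the 19 genes called lower. The red pairs lie below the blue pairs across the grey genes, and no gene on the right was called higher.

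Of 68 listed genes of the interferon pathway outside the 45, 46 were tested, and with PMA 7 rose and 6 fell, where 10.5% of all tested genes rose and 11.8% fell. IFNGR1, a chain of the interferon gamma receptor, went from 28.4 and 31.6 to 166 and 200.3 FPKM (log2 difference 2.57, SE 0.49, adjusted p = 0.00476), and the adhesion molecule ICAM1 rose by 2.12 (SE 0.27, adjusted p = 0.000635) on the log2 scale. IRF1, a transcription factor that binds the same response elements, went from 54.5 and 64.5 to 14.4 and 12.3 FPKM (log2 difference -2.08, SE 0.17, adjusted p = 5.71e-05). The kinase gene IKBKE, the RNA sensor TLR3 and the MHC class II activator CIITA had log2 differences of -1.80, -1.79 and -1.58 and were also called lower. STAT2 and IRF9, which encode parts of the complex that binds the ISRE, were not called (adjusted p = 0.113 and 0.0983). STAT2 was at 16.2 and 14.6 FPKM in untreated and 6.69 and 7.93 in treated Reh, and IRF9 at 4.27 and 4.43 in untreated and 12.1 and 7.94 in treated cells.

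The control lines were far apart in these genes. In Namalwa 25 of the 45 genes were lower than in Reh and 2 were higher, where 11.5% and 7.5% of all tested genes were called lower and higher. The median log2 difference was -1.42 over the 45 genes and 0.00 over all tested genes. This comparison shares the untreated Reh libraries with that of PMA. USP18, HERC5 and HERC6, the 3 genes grouped under the ISG15 pathway, were all lower. Also lower were 4 of 6 membrane restriction factors and 6 of 10 antiviral effectors. HERC5, the ligase that attaches ISG15, was at 24.3 and 24.4 FPKM in Reh and listed at 0 in both Namalwa libraries, so that no fold is given. GBP1 was at 16.6 and 23.9 FPKM in Reh and 0.0707 and 0.0402 in Namalwa (log2 difference -4.31, SE 0.33, adjusted p = 1.25e-05). OAS3 was at 15.8 and 15.5 FPKM in Reh and 0.0944 and 0 in Namalwa (log2 difference -3.99, SE 0.24, adjusted p = 2.87e-06), and the helicase gene DDX60 at 7.84 and 9.39 FPKM in Reh and 0.0345 and 0.0783 in Namalwa (log2 difference -3.18, SE 0.38, adjusted p = 0.000248). These 4 genes were thus at or close to 0 in Namalwa in both libraries.

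The exonuclease gene ISG20 went the other way, at 1.99 and 2.30 FPKM in Reh and 20.5 and 26.0 in Namalwa (log2 difference 2.94, SE 0.36, adjusted p = 0.000283). OAS2 was the other gene called higher, at 8.65 and 10.7 FPKM in Reh and 24.2 and 24.2 in Namalwa (log2 difference 1.24, SE 0.30, adjusted p = 0.0139), and this call was lost without either Namalwa library or without library 0 of Reh. Those 3 fits each left 1 gene called higher. Among pathway genes 8 of 46 were higher and 10 lower in Namalwa, where 7.5% and 11.5% of all tested genes were called. The DNA sensor gene MB21D1 (cGAS) was at 23.9 and 22.9 FPKM in Reh and 0.188 and 0 in Namalwa, and AIM2, another DNA sensor, was listed at 0 in Reh and at 41.6 and 60.8 FPKM in Namalwa. Each cHL line was therefore compared with each control line as well as with their mean.

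The question for the cHL lines was whether interferon-stimulated genes stand above their level in non-Hodgkin B cell lines. With each line as 1 observation, 3 cHL against 2 control lines, none of the 45 genes was called (limma), where 0.32% and 0.225% of all tested genes were called higher and lower. At an unadjusted p below 0.05 the number was 10 of the 45 and 1983 of 14679, and the smallest adjusted p among the 45 was 0.0931, for GBP2. The median log2 difference was 0.86 over the 45 genes and 0.02 over all tested genes. With libraries in place of lines as observations, a test that leaves out the variation between lines, 17 were called higher and 3 lower, where 13.7% and 10.9% of tested genes were called. All 6 cHL libraries exceeded all 4 untreated control libraries for 10 of the 45 genes, against 9.5% of tested genes, and lay below them for 0 of the 45, against 8.06%.

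Those 10 genes were IFI35, IFI44L, IFIH1, IFIT2, IFITM1, OASL, BST2, USP18, GBP2 and GBP5. IFIH1 encodes the double-stranded RNA sensor MDA5. It was at 50.7 and 83.9 FPKM in L428, 36.9 and 55.2 in L1236 and 12.6 and 22.6 in KM-H2, and at 4.34 and 4.85 in Reh and 2.49 and 2.26 in Namalwa. IFITM1 was at 111 and 77.6 FPKM in L428, 169 and 351 in L1236 and 64.2 and 148 in KM-H2, and at 2.44 and 2.37 in Namalwa, against the 20.9 and 27.2 FPKM of Reh. The lowest cHL library was more than 2 times the highest control library for IFIH1 and IFITM1, while for IFI35 the lowest cHL library, at 6.17 FPKM, and the highest control library, at 6.13, nearly met. For IFI44L, IFIT2, BST2 and USP18 the same pairs were 2.63 and 2.16, 5.17 and 3.86, 44.6 and 37.8, and 11.07 and 9.21 FPKM. Reads of IFITM1, IFITM2 and IFITM3, which are close copies of one another, may have been divided between them in ways that the table does not show.

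GBP2 and GBP5, guanylate-binding proteins that act on membranes of intracellular pathogens, were close to or at 0 in the controls. GBP5 was listed at 0 in all 4 control libraries and was at 35.7 and 78.6 FPKM in L428, 15.0 and 26.0 in L1236 and 1.499 and 4.41 in KM-H2. GBP2 was at 14.4 and 22.1 FPKM in L428, 6.76 and 12.01 in L1236 and 3.87 and 9.60 in KM-H2, and at 0.103 and 0 in Reh and 0.0514 and 0.0292 in Namalwa. GBP1 and GBP4 did not share this pattern, since Reh held both at levels within or above the range of the cHL libraries. BST2 was at 75.5 and 45.3 FPKM in L428, 56.6 and 44.6 in L1236 and 98.5 and 56.1 in KM-H2, and at 37.8 and 29.2 in Namalwa, a narrower separation than for GBP2.

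The choice of control line changed the counts. Against Reh alone L428 had 15 of the 45 genes higher and 4 lower (15.6% and 14.8% of tested genes), L1236 19 higher and 8 lower (15.8% and 14.9%), and KM-H2 7 higher and 14 lower (17.2% and 15.5%). Against Namalwa alone L428 had 28 higher and 5 lower (17.7% and 13.7%), L1236 30 higher and 1 lower (16.6% and 12.9%), and KM-H2 20 higher and 5 lower (17.4% and 13.0%). The median log2 differences against Reh were 0.43 in L428, 1.02 in L1236 and -0.35 in KM-H2, and those against Namalwa were 1.91, 2.202 and 0.89. The direction of the set in KM-H2 thus depended on the control line. All these comparisons share their control libraries.

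**Figure D3:**
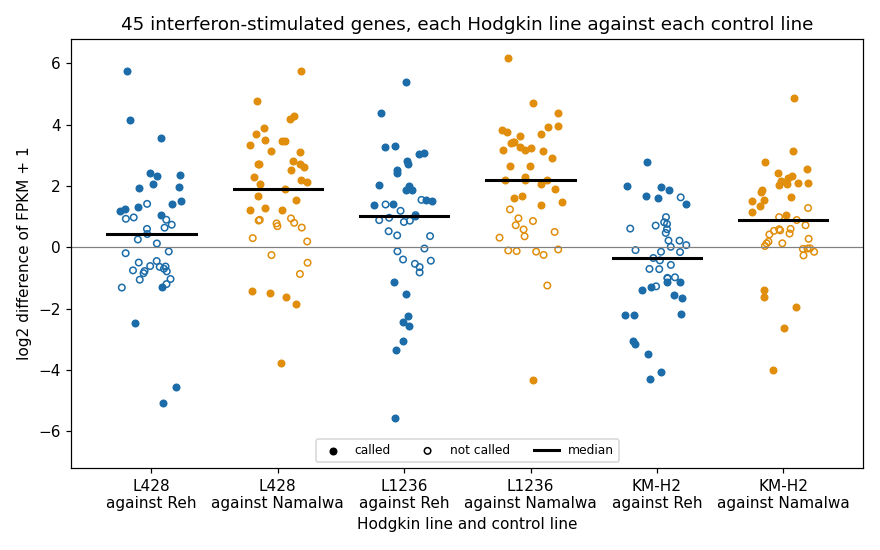
Log2 difference of FPKM + 1 for each of the 45 genes (circles) in each cHL line against Reh (blue) and against Namalwa (orange); filled circles passed the test, open circles did not, black bars are medians and points are spread sideways for legibility. The median of KM-H2 lies at -0.35 against Reh and 0.89 against Namalwa, while those of L428 and L1236 lie above 0 in both comparisons; differences of genes listed at 0 in one group depend on the added 1.

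L1236 carried the highest values. Against the mean of both control lines 29 of the 45 genes were higher and 3 lower, where 15.7% and 13.3% of tested genes were called, and the median log2 difference was 1.34. All 5 RNA sensors and kinase, 6 of 10 antiviral effectors and 4 of 5 IFI proteins were higher, with 3 of 4 guanylate-binding proteins. So were 6 of 8 nuclear and other factors, 1 of 6 membrane factors and 3 of 4 oligoadenylate synthetases, namely OAS1, OAS3 and OASL. Of the 3 ISG15 pathway genes, with a median difference of -0.73, 1 was higher. Of the 29 genes 18 were also called higher against untreated Reh alone and 26 against Namalwa alone. Against Reh alone 3 of 5 RNA sensors and kinase, 4 of 10 antiviral effectors, 3 of 8 nuclear and other factors and 2 of 4 guanylate-binding proteins were called higher, and the differences of OAS3, DDX60 and PARP14 turned to -0.82, -0.54 and -0.04. Against Namalwa alone that of ISG20 turned to -0.14. Without library 1 of L1236 the number higher was 21, and without library 0 it was 33. IFI44L, a gene of the IFI family with a role in restricting virus replication, was at 38.0 and 79.1 FPKM in L1236, 4.57 and 7.24 in L428 and 2.63 and 6.35 in KM-H2, and at 0.338 and 0.324 in Reh, 0.0226 and 0 after PMA and 0.427 and 2.16 in Namalwa. Its log2 difference in L1236 was 5.05 (SE 0.42, adjusted p = 1.2e-05). That of IFITM1 was 4.73 (SE 0.37, adjusted p = 8.38e-06) and that of IFIH1 3.41 (SE 0.32, adjusted p = 2.58e-05).

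ISG15 was also highest in L1236, at 213 and 439.6 FPKM, against 80.0 and 80.7 in L428, 83.3 and 126 in KM-H2 and 15.2 and 28.1 in Namalwa. In L1236 its log2 difference from the controls was 2.93 (SE 0.38, adjusted p = 0.000223), in KM-H2 1.36 (SE 0.38, adjusted p = 0.016) and in L428 1.02 (SE 0.38, adjusted p = 0.0535), and only the first 2 of these were called. The call in KM-H2 was lost against Reh alone (0.47, adjusted p = 0.431, limma), where ISG15 was at 54.8 and 98.6 FPKM. IFIT1 was at 3.31 and 8.02 FPKM in L1236, 1.38 and 2.61 in L428, 0.817 and 2.06 in KM-H2 and 0.145 and 0.412 in Namalwa, and was called higher in L1236 (log2 difference 1.34, SE 0.33, adjusted p = 0.00962). That call was lost against Reh alone (0.39, adjusted p = 0.468, limma), where IFIT1 was at 3.23 and 4.36 FPKM. For IFIT1 the libraries of L428 and KM-H2 all lay below both libraries of untreated Reh. IFI27, which encodes a small hydrophobic membrane protein, was at 1.75 and 1.60 FPKM in L428, 2.01 and 1.85 in L1236, 0 and 8.59 in KM-H2 and 1.87 and 2.53 in Namalwa, with the KM-H2 libraries far apart.

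The 3 genes lower in L1236 were IFITM2, TRIM22 and CMPK2. IFITM2 was at 0 and 0.301 FPKM in L1236, 44.9 and 13.7 in L428, 29.0 and 35.3 in KM-H2, 53.9 and 52.1 in Reh, 103 and 69.8 after PMA and 27.4 and 17.3 in Namalwa (log2 difference in L1236 -4.94, SE 0.41, adjusted p = 1.19e-05). L1236 thus combined the highest level of IFITM1 with almost no signal for its neighbour IFITM2. CMPK2, a nucleotide kinase gene next to RSAD2, was listed at 0 in both L1236 libraries and was at 0.389 and 1.48 FPKM in L428, 0 and 0.307 in KM-H2, 8.06 and 10.5 in Reh, 0.489 and 2.04 after PMA and 0.271 and 0.108 in Namalwa. TRIM22, an E3 ligase gene that restricts several viruses, was at 3.68 and 14.2 FPKM in L1236 (log2 difference -1.90, SE 0.49, adjusted p = 0.0108), a call lost without library 0 of L1236 and against Namalwa alone. The call of CMPK2 in L1236 was also lost against Namalwa alone (-0.25, adjusted p = 0.646, limma), as was that in KM-H2 (-0.05, adjusted p = 0.946).

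In L428 22 of the 45 genes were higher than the mean of both control lines and 4 were lower, where 16.2% and 13.8% of tested genes were called, and the median log2 difference was 1.02. All 4 guanylate-binding proteins and all 3 genes of the ISG15 pathway were higher, with 3 of 5 RNA sensors and kinase. So were 3 of 5 IFI proteins, 3 of 10 antiviral effectors, 3 of 8 nuclear and other factors and 2 of 6 membrane factors. Of the 4 oligoadenylate synthetases 1 was higher, OASL, and OAS1 was lower. Of the 22 genes 13 were also called higher against untreated Reh alone and 20 against Namalwa alone. Against Reh alone 2 of 4 guanylate-binding proteins and 1 of 3 ISG15 pathway genes (HERC6) were called higher. The differences of GBP1, HERC5 and DDX60 turned to -0.61, -0.77 and -0.45. The log2 difference of GBP2 was 4.17 (SE 0.33, adjusted p = 9.57e-06), that of IFIH1 3.93 (SE 0.32, adjusted p = 1.11e-05) and that of IFITM1 3.35 (SE 0.37, adjusted p = 8.43e-05). HERC5 was at 12.5 and 15.3 FPKM in L428 and HERC6, its relative, at 8.88 and 14.0. HERC6 was at 0.0458 and 0 FPKM in L1236, 0 and 0.772 in KM-H2, 1.86 and 2.00 in Reh, 1.24 and 1.496 after PMA and 0.169 and 0.0311 in Namalwa, so that L428 lay above every other group.

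The 4 genes lower in L428 were TRIM22, IFITM3, MX1 and OAS1. TRIM22 was at 0.351 and 0.588 FPKM in L428, against 20.1 and 19.2 in KM-H2, 39.0 and 61.3 in Reh, 10.6 and 23.3 after PMA and 13.8 and 26.0 in Namalwa (log2 difference in L428 -4.43, SE 0.49, adjusted p = 7.84e-05). IFITM3 was at 0.584 and 0 FPKM in L428, 3.67 and 5.47 in L1236, 33.2 and 33.2 in KM-H2, 24.2 and 33.3 in Reh, 32.8 and 13.3 after PMA and 2.69 and 3.09 in Namalwa (log2 difference in L428 -3.09, SE 0.35, adjusted p = 9.1e-05). The calls of MX1 and OAS1 in L428 were less stable. MX1 at 3.31 and 5.59 FPKM had a log2 difference of -1.58 (SE 0.44, adjusted p = 0.0151), lost without library 0 of L428, at a pseudocount of 0.1 and against Reh alone. OAS1 at 4.68 and 3.32 FPKM had one of -1.17 (SE 0.42, adjusted p = 0.048), lost without either L428 library, either Reh library or library 1 of Namalwa, without the expression filter, with median-of-ratios scaling and against Reh alone.

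KM-H2 was the cHL line with the lowest level of the set. Against the mean of both control lines 12 of the 45 genes were higher and 6 lower, where 16.8% and 13.5% of tested genes were called, and the median log2 difference was 0.28. Without library 1 of KM-H2 the number higher was 8. Of the 12 genes 7 were also called higher against untreated Reh alone and 11 against Namalwa alone. Whether the CD3D and CD14 signal of KM-H2 has a part in these differences was not tested. IFITM1 (log2 difference 3.42, SE 0.37, adjusted p = 6.96e-05), GBP2 (2.78, SE 0.33, adjusted p = 0.000121) and IFIH1 (2.05, SE 0.32, adjusted p = 0.000666) were higher. The 6 lower genes were MX1, LY6E, HERC5, PARP9, CMPK2 and SAMD9. MX1 was at 0 and 0.432 FPKM in KM-H2 and 10.6 and 30.7 in Namalwa (log2 difference in KM-H2 -3.74, SE 0.44, adjusted p = 0.000109). LY6E, a lipid-anchored surface protein gene, was at 0.530 and 3.90 FPKM in KM-H2, 66.5 and 34.1 in L428, 41.9 and 35.5 in L1236, 44.8 and 61.6 in Reh, 29.2 and 26.6 after PMA and 14.7 and 17.0 in Namalwa (log2 difference in KM-H2 -3.45, SE 0.43, adjusted p = 0.000161).

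HERC5 in KM-H2 depended on the control. It was at 0.158 and 0.988 FPKM in KM-H2, 1.73 and 2.37 in L1236 and 5.32 and 6.70 in PMA-treated Reh, and its log2 difference in KM-H2 was -1.73 (SE 0.24, adjusted p = 0.000297) against both controls, while Namalwa, listed at 0, lay below KM-H2. PARP9, which acts together with a ubiquitin ligase, was at 1.39 and 1.42 FPKM in KM-H2, 9.68 and 14.7 in L428, 22.4 and 35.1 in L1236, 16.0 and 22.8 in Reh, 5.19 and 6.38 after PMA and 1.71 and 1.61 in Namalwa (log2 difference in KM-H2 -1.61, SE 0.25, adjusted p = 0.000619). This call was lost against Namalwa alone. PARP9 levels in KM-H2 and Namalwa were close and both lay below all other groups.

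Compared directly with L428 and L1236, KM-H2 had 22 of the 45 genes lower and 3 higher, where 11.5% and 12.3% of tested genes were called, and the median log2 difference was -1.08. Of 8 nuclear and other factors 6 were lower, with 3 of 5 IFI proteins, 3 of 5 RNA sensors and kinase and 2 of 4 guanylate-binding proteins. Leaving out library 0 of KM-H2 left 15 lower genes, and leaving out library 0 of L1236 gave 25. The largest differences were those of MX1 (-4.18, SE 0.44, adjusted p = 7.33e-05), LY6E (-4.00, SE 0.43, adjusted p = 8.53e-05), GBP5 (-3.19, SE 0.38, adjusted p = 0.000176) and PARP9 (-3.01, SE 0.25, adjusted p = 1.52e-05). The 3 genes higher in KM-H2 were IFITM3 (3.70, SE 0.35, adjusted p = 3.61e-05), IFITM2 (2.60, SE 0.41, adjusted p = 0.000933) and TRIM22 (2.55, SE 0.49, adjusted p = 0.00277). For IFITM2 the L428 libraries lay on either side of those of KM-H2, and the L1236 libraries near 0. KM-H2 thus held IFITM1, IFITM2 and IFITM3 together, while L428 held little IFITM3 and L1236 little IFITM2.

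Between L428 and L1236 13 of the 45 genes were lower in L428 and 7 were higher, where 10.9% and 11.0% of tested genes were called, with a median log2 difference of -0.36. Without library 1 of L1236 the number lower was 7, and the number higher was 4 without library 0 of L1236 or library 1 of L428. MX1 was at 58.6 and 128 FPKM in L1236 (log2 difference of L428 -4.04, SE 0.50, adjusted p = 0.000301). IFI44 was at 4.13 and 7.71 FPKM in L428, 27.8 and 54.3 in L1236, 6.47 and 16.5 in KM-H2, 12.9 and 15.9 in Reh, 13.2 and 10.5 after PMA and 1.77 and 3.81 in Namalwa (log2 difference of L428 over L1236 -2.58, SE 0.48, adjusted p = 0.00346). IFI44L had a log2 difference of -3.04 (SE 0.48, adjusted p = 0.00135) and TRIM22 one of -2.53 (SE 0.56, adjusted p = 0.00832), the latter lost without library 1 of L1236. For MX1 and both IFI44 genes every L428 library lay below every L1236 library.

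The genes higher in L428 were led by IFITM2 (log2 difference 4.51, SE 0.47, adjusted p = 0.000103), HERC6 (3.57, SE 0.28, adjusted p = 1.68e-05), HERC5 (2.29, SE 0.27, adjusted p = 0.000228) and GBP1 (1.64, SE 0.33, adjusted p = 0.00471). GBP1 was at 14.1 and 11.4 FPKM in L428, 2.36 and 4.74 in L1236, 2.85 and 4.41 in KM-H2 and 6.25 and 4.06 in PMA-treated Reh. The oligoadenylate synthetases were mixed. OAS1 was at 13.9 and 41.4 FPKM in L1236, 10.9 and 14.5 in KM-H2 and 8.67 and 18.9 in Namalwa, and OAS2 at 9.27 and 7.46 in L428, 21.1 and 43.5 in L1236, 8.63 and 8.52 in KM-H2 and 3.21 and 2.83 after PMA. OAS3 was at 5.78 and 5.84 FPKM in L428, 6.72 and 10.6 in L1236, 2.21 and 3.25 in KM-H2 and 3.05 and 2.71 after PMA, all below the 15.8 and 15.5 FPKM of untreated Reh.

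The remaining values of genes described above complete the comparison with treated Reh. XAF1 was at 8.36 and 21.8 FPKM in L428, 13.7 and 32.0 in L1236, 6.37 and 4.68 in KM-H2 and 0.277 and 0.615 in Namalwa, so that Namalwa and PMA-treated Reh were at like levels. PARP14 was at 21.8 and 38.3 FPKM in L428, 37.5 and 61.5 in L1236, 9.71 and 9.94 in KM-H2 and 5.17 and 5.99 in Namalwa, and GBP4 was at 11.1 and 12.02 in L428, 10.3 and 11.7 in L1236, 1.15 and 1.49 in KM-H2 and 0.102 and 0.135 in Namalwa. In both genes KM-H2 lay between the other cHL lines and Namalwa. ISG20 was at 12.5 and 20.4 FPKM in L428, 16.2 and 26.7 in L1236, 3.81 and 7.03 in KM-H2 and 3.52 and 2.05 after PMA, and DDX60 was at 4.78 and 7.55 in L428, 3.17 and 9.46 in L1236, 3.49 and 3.17 in KM-H2 and 2.43 and 2.91 after PMA. GBP2 after PMA was at 0.408 and 0.370 FPKM, GBP5 at 0.0171 and 0 and IFIH1 at 2.60 and 4.96. PMA-treated Reh therefore stayed below the cHL lines in GBP2, GBP5 and IFIH1. These genes were among those already picked because all cHL libraries exceeded all untreated control libraries. IFI35, another gene of that set, overlapped, at 7.54 and 4.79 FPKM in PMA-treated Reh and 6.63 and 6.17 in KM-H2.

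The other 17 genes are given by their range or by their highest values over the 12 libraries. The RNA sensors DDX58 (RIG-I) and DHX58 (LGP2) spanned 1.53 to 17.4 and 0.708 to 21.8 FPKM, and EIF2AK2, the RNA-dependent kinase PKR, 8.63 to 50.5 FPKM. IFI6 spanned 2.74 to 97.7, IFI35 1.73 to 40.2, and the ISG15 protease gene USP18 0.661 to 19.8 FPKM. These 6 genes had their highest group mean in L1236, as did IFIT2, OASL, SP100, SP110, SAMD9 and SAMD9L, whose highest libraries lay between 10.5 and 52.5 FPKM. The RNA-binding genes IFIT3 and IFIT5 and the GTPase gene MX2 were highest in L428, with top values of 29.6, 18.3 and 19.0 FPKM. RSAD2 (viperin) and PLSCR1, a phospholipid scramblase gene, were highest in untreated Reh, at up to 1.98 FPKM for RSAD2, and at 13.6 FPKM in Reh library 1 for PLSCR1, whose highest single library was one of L1236 at 14.2 FPKM.

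**Figure D4:**
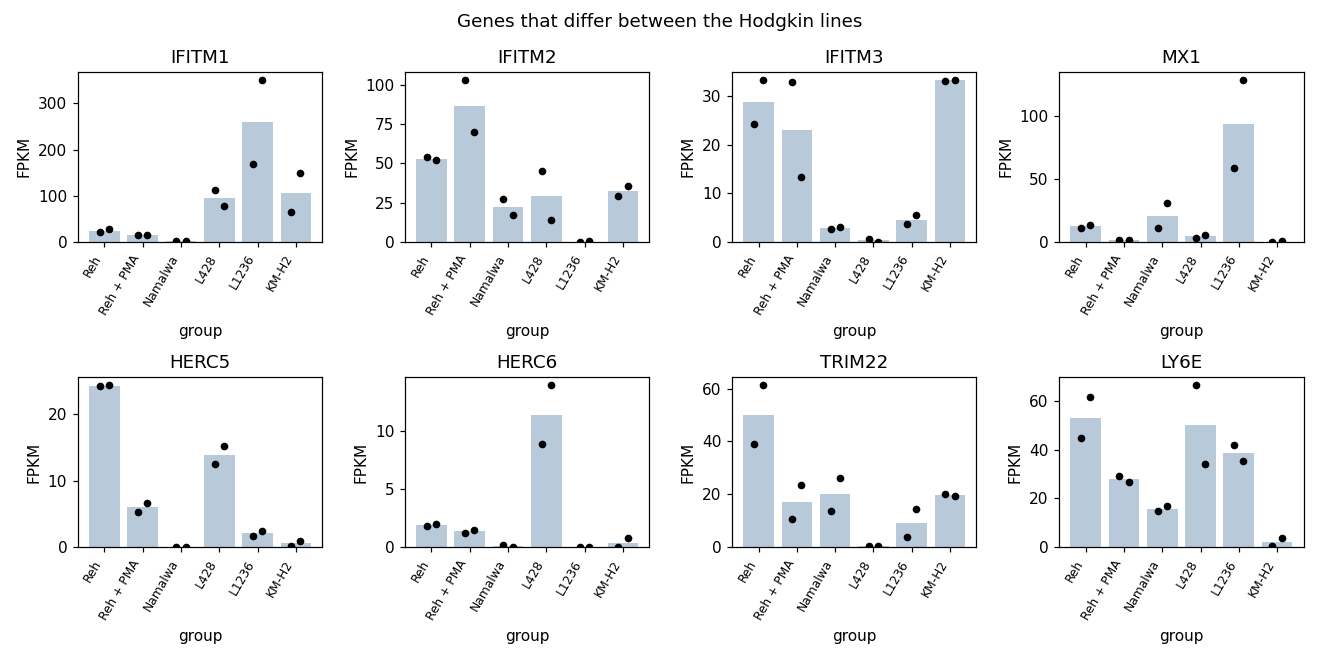
FPKM of 8 interferon-stimulated genes that differed between the cHL lines, in each of the 6 groups; bars are means of 2 libraries, which start at 0, and dots are the libraries. IFITM2 is near 0 in L1236 alone, IFITM3 and TRIM22 are below 1 FPKM in L428 alone, and MX1 and LY6E are lowest in KM-H2.

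Other genes of the pathway, from ligands, receptors and sensors to negative regulators and interferon gamma targets, came from a list of 68 genes of which 46 were tested. Against the mean of both control lines 15 were higher and 3 lower in L428, 18 and 6 in L1236, and 15 and 3 in KM-H2, with the percentages of all tested genes given above for each line. The kinase gene JAK2 was at 52.4 and 53.1 FPKM in L1236 and 4.36 and 5.06 in Reh (log2 difference in L1236 3.84, SE 0.23, adjusted p = 1.3e-06). It was at 18.1 and 28.4 FPKM in L428, where it was also called higher, and at 5.84 and 4.99 FPKM in KM-H2, near the level of Reh and not called. SOCS1, a feedback inhibitor of JAK kinases, was at 61.2 and 40.7 FPKM in L428 and 27.4 and 19.7 in KM-H2, and at 0.978 and 0.906 in Reh and 4.69 and 2.01 in Namalwa.

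Of 10 tested genes usually assigned to interferon gamma, 4 were higher and 0 lower than in the control lines in L428, 6 and 1 in L1236, and 5 and 2 in KM-H2, where 16.2% and 13.8%, 15.7% and 13.3%, and 16.8% and 13.5% of all tested genes were called. CXCL9, the listed gene of this kind that was not tested, was at 0.173 FPKM or below in every library. IDO1 was at 1.99 and 2.96 FPKM in L428 and at 0.490 or below in all other groups. The chemokine gene CXCL10 was at 5.58 and 21.7 FPKM in L428, 192 and 621 in L1236 and 145 and 81.9 in KM-H2, was listed at 0 in Reh with and without PMA, and was at 0.391 and 0.558 FPKM in Namalwa. ICAM1 had log2 differences of 3.71 (SE 0.24, adjusted p = 2.49e-06) in L428 and 4.97 (SE 0.24, adjusted p = 4.39e-07) in KM-H2. TMEM173, the adaptor STING, was at 30.0 and 40.2 FPKM in L1236, 15.9 and 13.8 in KM-H2 and 5.52 and 5.51 in L428, at 2.81 and 0.972 in Reh and listed at 0 in both Namalwa libraries. PMA-treated Reh, at 6.87 and 6.44 FPKM, lay above L428.

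Interferon genes themselves were scarcely detected. Of 21 ligand genes in the table only IFNK reached the expression minimum, at 2.05 and 0 FPKM in L1236 and 3.28 and 0.175 in KM-H2, and in each line a single library carried the value. IFNB1 was at 0.248 and 0.698 FPKM in L1236 and IFNG at 0.421 and 2.87 in L428, and each was at 0.255 FPKM or below in all other groups. The table gives no read counts, so that the lowest level at which a ligand transcript could have been detected is not known.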

How the data were processed

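Ribosome-depleted, stranded total RNA libraries were prepared in duplicate from 5 cell lines, 1 of them also after PMA treatment. Per the labels, the authors aligned reads to hg19 with TopHat2 2.0.11 and obtained gene FPKM values with Cuffnorm 2.2.1, and the deposited FPKM table holds 1 column per library and no counts. The library scaling method and gene annotation are not given in the sources used here. Column headers number duplicates 0 and 1 while the labels use other numbers, so that columns were assigned to groups only. Read depth is unknown: low values moved in steps between duplicates (commonest log2 ratio of library 1 to library 0 from -1.92 in L1236 to 0.18 in Namalwa), but steps could not be assigned to whole reads.

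From the deposited values, log2(FPKM + 1) was computed for genes with at least 1 FPKM in at least 2 of 12 libraries (14679 of 26210) and fitted over all 6 groups with limma 3.58.1 (R 4.3.3; intensity trend in the empirical Bayes step), adjusting p-values over all tested genes by the Benjamini-Hochberg method. A gene was called at an adjusted p below 0.05 and an absolute log2 difference of at least 1. The comparison of tumour types was fitted on the 5 means of untreated lines. The script was tested on simulated data. Values in every library are printed for the called genes with the 4 largest differences in each direction of each comparison and for ISG15, IFIT1, MX1, OAS1, IFI27, IFITM1 and BST2, and of the pathway list at most the 6 largest called genes are named. One gene of that list is counted but not reported here. Genes and lists were chosen with earlier results of these data known. Alternatives were another pseudocount, no filter, 2 other scalings, no trend, each control line alone, libraries as the unit, a block on the header number (added after seeing the data) and leaving out each library or line. Figures were drawn with matplotlib 3.10.9.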

Additional observations from a re-analysis of the deposited data

Results flagged for a closer look

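Of the interferon-stimulated genes, 5 were called higher in one cHL line and lower in another against the mean of both control lines. The share of all tested genes with such opposite calls was not counted. Only MX1 kept calls in both directions against Reh alone and against Namalwa alone. HERC5 in L428 had a log2 difference of -0.77 against Reh, and in KM-H2 one of 0.60 against Namalwa. Against Reh alone IFITM3 in KM-H2 (0.22), PARP9 in L1236 (0.53) and OAS1 in L428 (-0.84) were not called. Genes picked for opposite calls differ between the lines concerned by construction. The differences below, from the fit over all 6 groups, are thus a description and no separate test. IFITM3 was lower in L428 than in L1236 (log2 difference -2.13) and higher in KM-H2 than in the mean of both (3.70). MX1 was lower in L428 than in L1236 (-4.04) and lower in KM-H2 than in the mean of both (-4.18). OAS1 was lower in L428 than in L1236 (-2.34). HERC5 was higher in L428 than in L1236 (2.29) and lower in KM-H2 than in the mean of L428 and L1236 (-2.14). PARP9 was lower in L428 than in L1236 (-1.16) and lower in KM-H2 than in both (-3.01). The reads of IFITM3 may be divided with its close copies, and what underlies the differences was not tested.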

How the results depend on the processing

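The column headers number the duplicates 0 and 1 but do not carry the replicate numbers of the labels, so that the planned block on the latter was not run. A replicate block on the header number, chosen after seeing the data, gave 20 genes lower after PMA, 27 lower in Namalwa than in Reh, 23 higher in L428, 24 lower in KM-H2 than in L428 and L1236 and 14 lower in L428 than in L1236; it left the other counts of these 7 comparisons as they were and changed no call among the named genes with the largest differences. The differences of library 1 from library 0 correlated between groups by -0.045 to 0.681 across genes, above 0.1 in 6 of 15 pairs of groups. Among these were all 3 pairs of cHL lines (0.301 to 0.681) and Namalwa with Reh (0.357), so that the header number goes with a shared difference among the cHL duplicates but not across all groups; the labels do not say what it marks. With a pseudocount of 0.1, the number of interferon-stimulated genes called higher was 1 after PMA and 1 in cHL against control lines, and with libraries as the unit the latter comparison had 17 higher and 3 lower. Against untreated Reh alone L1236 had 19 higher and 8 lower and KM-H2 7 higher and 14 lower. Against Namalwa alone L1236 had 1 lower and KM-H2 20 higher, and HERC5 in KM-H2 changed sign to 0.60, since Namalwa is listed at 0. Leaving out 1 library at a time gave 12 to 14 genes lower after PMA, 1 to 2 higher in Namalwa than in Reh, and 4 to 8 higher and 7 to 15 lower in L428 than in L1236; fits that left a group with 1 library assume that it varies like the other groups. Of the counts of called genes, 98 of 108 under the other settings and 95 of 102 without 1 library or line stayed within 1.5 times the reported count. Of the differences of named genes, 325 under the other settings and 240 without a library kept direction and call, 8 and 12 lost the call and 1 reversed. Where a call was lost the cause was not tested. The table gives no counts, which limits what can be said of genes near 0 FPKM.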
